A study of Sus scrofa with 12 samples.

Results

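The m6A readers are proteins that bind N6-methyladenosine (m6A) in RNA, and their own mRNAs can carry m6A as well. The m6A peaks on the mRNAs of 10 reader genes were followed in boar sperm. The genes were the YTH family members YTHDF1, YTHDF2, YTHDF3, YTHDC1 and YTHDC2, the IGF2BP family members IGF2BP1, IGF2BP2 and IGF2BP3, and HNRNPA2B1 and HNRNPC. They are 10 of 20666 pig genes with an annotated mRNA, and 9 of them were among the 11705 genes with a peak in at least 1 sample. A peak was counted for a gene if any of its bases lay, on the same strand, in an exon of a RefSeq mRNA of that gene (Sscrofa11.1).

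Semen of 3 Duroc boars was divided into fresh sperm (Fs), put straight into liquid nitrogen and kept for RNA extraction, and frozen-thawed sperm (Fts). The Fts portion was cooled to 17 °C, taken up in a lactose extender with hen's egg yolk, cooled further to 4 °C, mixed with the same extender holding 6% glycerol and frozen in straws, first in vapour at about -130 °C. RNA was broken into pieces of about 100 nt and precipitated with an anti-m6A antibody (IP). Each group had 3 IP libraries with 3 input libraries, and the labels number them 1 to 3 without tying a number to a boar.

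A peak is a stretch with more IP reads than the input of the same sample leads the peak caller MACS to expect, and its score was taken as 10 times -log10 of the MACS p-value. The score grows with read depth as well as with enrichment, so it is used here to describe and rank. The lists were made by the authors sample by sample and held 8015, 10378 and 10335 peaks in Fs and 9682, 11510 and 11982 in Fts. Depth in reads was not analysed here. The study reported fewer mapped IP reads for every Fts sample than for every Fs sample, and input reads that overlapped between the groups. The median score of the peaks on mRNA exons was 11.8, 11.4 and 10.7 in the Fs lists and 13.1, 16.2 and 13.4 in the Fts lists, so that every Fts list had a higher median than every Fs list. For the reader peaks it was 44.9, 24.9 and 30.8 in Fs and 72.4, 113 and 56.2 in Fts. The summed score of all mRNA peaks also rose, from 368831 ± 42376 in Fs to 839512 ± 254877 in Fts (SD, n = 3). For the reader peaks the sum was 381 ± 50.9 in Fs and 3250 ± 654 in Fts. The largest parts of the Fts sums came from HNRNPA2B1, with 1038, 2172 and 1802, and YTHDC1, with 1151, 1068 and 1239.

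Readers turn the mark into an outcome for the RNA. The YTH proteins hold the methylated adenosine in a pocket of their YTH domain and act on translation, decay, splicing or export, the IGF2BP proteins stabilise their targets through KH domains, and the HNRNP proteins act in the nucleus on processing. In the male germ line, YTHDC2 is known for its need in meiosis. Mature sperm are largely silent in transcription, and their RNA is mostly carried over from spermatids.

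The label spermatozoa was set against marker genes. Of 10 sperm and spermatid markers, 9 were found in the annotation and 3 had a peak, each in 1 sample. PRM2, a protamine that packs sperm DNA, had 1 peak in Fts 2, TNP2 had 1 in Fts 3 and CATSPER1 had 1 in Fs 2, with scores of 3100, 2075 and 24.84. The first 2 scores were above every reader score. PRM1, TNP1, ODF1, AKAP4, TSSK6 and GAPDHS had no peak in any list. A gene without a peak may still be expressed, because the lists hold only RNA with IP signal above input, so these values do not check the label. Of 5 leukocyte markers, 2 had a peak, with 0, 2 and 2 peaks in Fs and 0, 0 and 1 in Fts. PTPRC had the most, with 3 peaks over the 6 samples, and CD14, CSF1R and LYZ had none.

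In Fs the 10 reader genes together had 7, 9 and 7 peaks, and in Fts they had 14, 14 and 17. Every Fts sample held more reader peaks than every Fs sample. Fs averaged 7.67 ± 1.15 peaks (SD, n = 3) and Fts 15 ± 1.73, and the difference of 7.33 peaks was larger than the spread between the samples of a group. With peaks joined across exon junctions it was 4.67. Per 10000 peaks of the list the values were 8.73, 8.67 and 6.77 in Fs and 14.5, 12.2 and 14.2 in Fts, and the groups again did not overlap. YTHDC1 alone gave 4 of the 7.33 peaks, and 3.26 of the difference of 5.54 per 10000. The separation of the groups therefore leans on this gene, and the set was not counted without it. The number of reader genes with a peak was 4, 6 and 4 in Fs and 5, 5 and 7 in Fts. These counts overlapped, and the difference of 1 gene was smaller than the SD of the pair differences, 2 genes. The share of all mRNA genes with a peak was 25.4%, 30.9% and 30.5% in Fs and 26.8%, 29.7% and 31.7% in Fts.

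The epithelial and earlier germ cell lists, like the readers, had more peaks in every Fts sample than in every Fs sample, and the leukocyte list did not. The m6A writers and the other m6A binders, given below, also had more peaks in every Fts sample, but the binders overlapped by summed score. The 5 epithelial markers had 1, 1 and 2 peaks in Fs and 6, 7 and 6 in Fts, with summed scores of 13.5, 8.44 and 6.98 in Fs and 255.8, 941.8 and 393.3 in Fts. Of these 5 genes, 4 had a peak and EPCAM had none, and CDH1 had 0, 1 and 1 peaks in Fs and 0, 0 and 1 in Fts. KRT8, a keratin of simple epithelia, had the most, with 0, 0 and 0 peaks in Fs and 3, 4 and 2 in Fts. The 4 markers of earlier germ cells had 1, 0 and 0 peaks in Fs and 4, 3 and 4 in Fts, with summed scores of 4.8, 0 and 0 in Fs and 138.4, 246.8 and 248.3 in Fts. DDX4, an RNA helicase of germ cells, led with 4, 3 and 2 peaks in Fts and 0 in each Fs sample, and SYCP3 had no peak. Before RNA extraction the sperm of both groups were treated with the detergent Triton X-100 to remove somatic cells. The part of these markers in the reader values was not tested, and in bulk samples fewer cells of a type and less RNA per cell cannot be told apart.

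**Figure D1:**
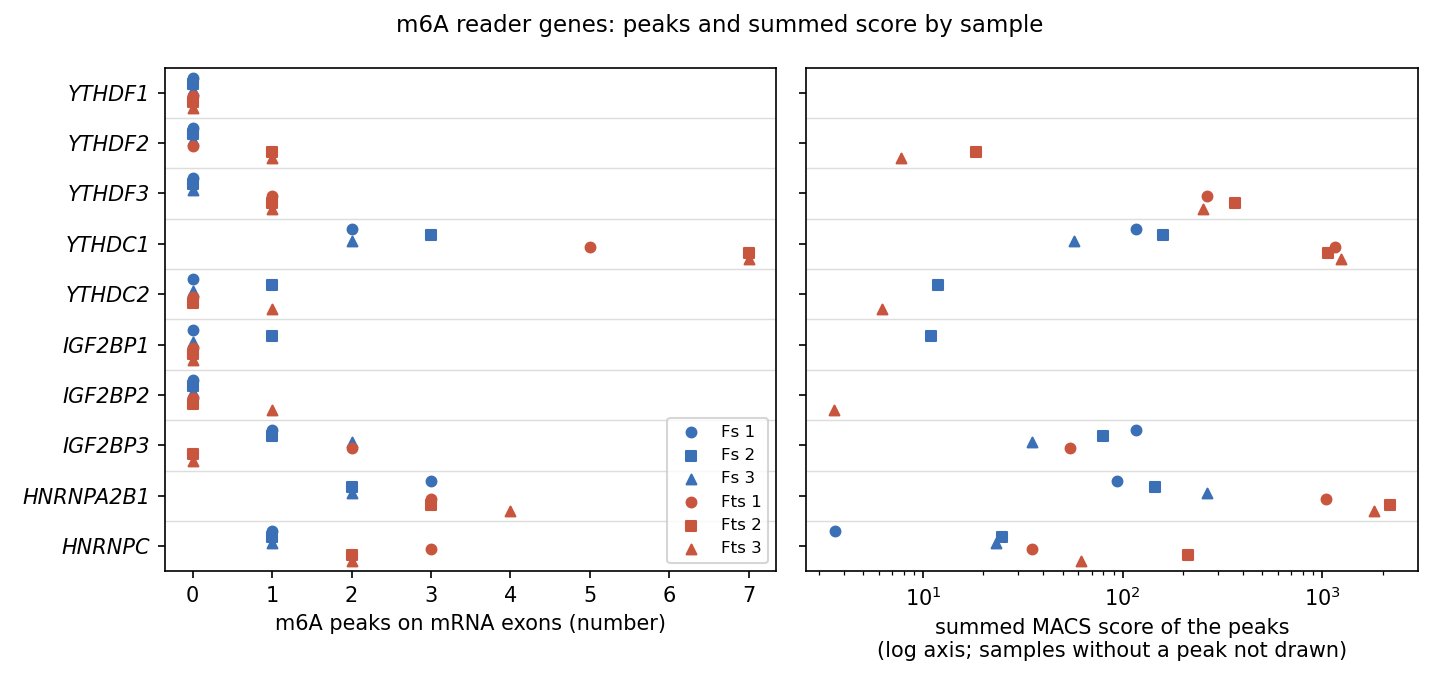
Number of m6A peaks on mRNA exons (left) and their summed MACS score (right, log axis, samples without a peak not drawn) for each reader gene; blue points are the 3 Fs samples, red points the 3 Fts samples, and the symbol gives the sample number. YTHDC1 had 2 to 3 peaks in Fs and 5 to 7 in Fts, and YTHDF1 had none.

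The groups were compared gene by gene with the exact sign-flip test (two-sided) on the 3 pairs of equal number, which cannot give a p below 0.25, and an exact permutation of 3 against 3 samples cannot go below 0.1. No gene could therefore be called by its p, and the call used is that all 3 samples of one group lay above all 3 of the other. By number of peaks, Fts lay above Fs in 3 of the 9 readers with a peak (33.3%), YTHDF3, YTHDC1 and HNRNPC, against 8.98% of the 11705 genes. Fs lay above Fts in 0 readers, against 5.36% of genes. By summed score the readers numbered 4, with HNRNPA2B1 added, against 13.5% of genes, and in the other direction 0 against 10.7%. The 3 genes called by number each reached the smallest p that 3 pairs allow (p = 0.25 by the exact sign-flip test, two-sided and unadjusted).

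The cytoplasmic readers of the YTHDF family differed among themselves. YTHDF1, known for promoting translation of its targets, had no peak in any of the 6 samples on its 2944 nt mRNA. YTHDF2 brings methylated mRNAs to the deadenylation machinery, and it had 0, 0 and 0 peaks in Fs and 0, 1 and 1 in Fts. The scores in Fts 2 and Fts 3 were 18.42 and 7.78, and 53.8% and 73% of the genes with a peak in those samples had a highest score at least as high. Both groups overlapped at 0, and with a minimum score of 20 the gene had no peak left.

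The YTHDF2 region lay at chr6:85722929-85723754 on the plus strand, inside the coding sequence of exon 6 of 7. The annotated mRNA of 12398 nt ends in a 3'UTR of 10205 nt, which held no peak in any sample, and it has no annotated 5'UTR. A peak of 346 bp in Fts 2 with a score of 13.73 lay upstream of it, 17 bp before the first annotated exon, and was not counted. The primers that the study used for YTHDF2 are shown because their product crosses the start of this region. Both matched the mRNA once and bound a product of 148 nt at chr6:85722873-85723020, all in exon 6. Of this product, 92 nt lay under the Fts 2 peak and 9 nt under the Fts 3 peak.
YTHDF2 forward primer: aacaagggtcctgtggcaaa
YTHDF2 reverse primer: gctgtgtctgttgccctact

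YTHDF3 acts together with YTHDF1 and YTHDF2 and had 0, 0 and 0 peaks in Fs and 1, 1 and 1 in Fts. The scores were 264.63, 364.2 and 251.58 in Fts 1, Fts 2 and Fts 3. The 3 Fts samples were alike and the 3 Fs lists had no peak on the gene. The peaks covered 15.7%, 19.9% and 19.5% of the exon bases of its 10 annotated mRNAs, and 389, 512 and 507 genes had a higher highest score in the same 3 samples. The region spanned chr4:70910191-70911789 on the minus strand, which is the whole of exon 6 of 7 in the longest coding mRNA, 1599 bases of coding sequence from codon 49 to codon 581 of 589 with the stop. The 3 peaks ended at the same base, the junction with exon 7, and started at different places, so that they were 1259, 1599 and 1569 bp long. No peak reached the 3'UTR of 3049 nt.

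YTHDC1 is the nuclear YTH reader and is known for its roles in splicing and export of methylated mRNA. It had the most peaks of the 10 genes, 26 over the 6 samples, with 2, 3 and 2 in Fs and 5, 7 and 7 in Fts. The summed scores were 117.1, 159.7 and 56.92 in Fs and 1151, 1068 and 1239 in Fts. The groups did not overlap in either value. Fs had 2.33 peaks on average and Fts 6.33, which differ by 4 peaks with an SD of 1 over the pairs. The peaks covered 21.1%, 30.4% and 17.5% of the exon bases in Fs and 51.3%, 59.2% and 61.2% in Fts. Joined across exon junctions, the Fts counts were 5, 5 and 5 and the Fs counts stayed at 2, 3 and 2, without overlap. By number of peaks the gene was among the top 2.29%, 1.37% and 1.05% of genes with a peak in the Fts samples, and among the top 22.4%, 8.38% and 27.6% in the Fs samples.

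The 26 peaks of YTHDC1 fell into 7 regions on chromosome 8, plus strand, along an mRNA of 17 exons and 3389 nt. One region, exon 11 at chr8:66113715-66113881, had a peak in all 6 samples. Its scores were 72.14, 46.93 and 49.98 in Fs and 33.3, 20.96 and 59.16 in Fts. Here the groups overlapped, unlike the gene's sum, and the lowest scores were those of Fts 2 and Fts 1. The region equals exon 11 end to end and holds codons 484 to 539 of 741.

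The highest scores of the gene lay on exon 4, at chr8:66098764-66099202. The scores were 670.48, 531.62 and 700.21 in Fts, and in Fs only Fs 2 had a peak, with 108.19. Every Fts score was above the Fs score, and Fs 1 and Fs 3 had no peak there. These Fts scores were exceeded by the highest score of 141, 375 and 204 genes in their samples. The region again equals the exon, 439 coding bases from codon 154 to codon 300.

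The first and last exons of YTHDC1 carried peaks as well. The region chr8:66086495-66086954 held 388 bases of 5'UTR and 28 coding bases of exon 1 and had scores of 4.55 in Fs 2, 6.94 in Fs 3 and 94.28, 177.97 and 165.02 in the Fts samples. Fs 1 had no peak there and the other Fs scores were low. The region chr8:66121715-66122481 started at the first base of exon 17 and ran over the stop codon, with 225 coding bases and 542 bases of 3'UTR. Its score was 44.94 in Fs 1 and 329.11, 278.52 and 222.84 in Fts, with no peak in Fs 2 or Fs 3.

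The other 3 regions of YTHDC1 had peaks in Fts samples alone. Exon 14, at chr8:66117956-66118019, had scores of 23.42, 35.95 and 42.72 in the 3 Fts samples. Exon 12 and exon 16 had peaks in Fts 2 and Fts 3, with scores from 7.25 to 27.72. Exon 12 follows exon 11 and exon 16 precedes exon 17 in the mRNA, so these 2 regions continue peaks called on the neighbouring exon.

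YTHDC2, an RNA helicase with a YTH domain that male germ cells need for meiosis, had 0, 1 and 0 peaks in Fs and 0, 0 and 1 in Fts. Both peaks were the same 183 bp at chr2:118088252-118088434, exon 28 of 30, all coding. The scores were 11.82 in Fs 2 and 6.23 in Fts 3. The groups overlapped, and neither score reached 20.

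Of the IGF2BP family, which binds and stabilises methylated mRNAs, IGF2BP3 had peaks in 4 samples and the other members had 1 peak each. IGF2BP1 had its peak in Fs 2 (chr12:25225335-25225420, score 10.92), with 49 of 86 bp in exon 3 and the remaining 37 bp outside annotated mRNA exons. IGF2BP2 had its peak in Fts 3 (chr13:123519963-123520235, score 3.58), equal to exon 6. The IGF2BP2 score was among the lowest of its sample, since 6259 genes had a higher highest score.

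IGF2BP3 had 1, 1 and 2 peaks in Fs and 2, 0 and 0 in Fts, with summed scores of 116.8, 79.51 and 35.21 in Fs and 54.42, 0 and 0 in Fts. Fs had the larger mean, as in IGF2BP1, but Fts 1 lay within the range of the Fs samples. The difference was -0.667 peaks with an SD of 1.53 over the pairs (p = 0.75 by the exact sign-flip test, two-sided and unadjusted), smaller than its spread. The region at chr9:92271551-92272014 on the minus strand had scores of 116.85, 79.51 and 30.76 in Fs and 50.46 in Fts 1. It lies within exon 1 and holds 392 bases of 5'UTR and the first 24 codons. The other region, exon 9, had a peak in Fs 3 and in Fts 1 with scores of 4.45 and 3.96. A peak of 23 bp in an intron, in Fts 1 with a score of 22.9, was not counted. Without the samples numbered 1, Fs lay above Fts in this gene, and without those numbered 3 the difference was 0.

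HNRNPA2B1 is a nuclear protein known for splicing and for the processing of microRNA precursors. It had 3, 2 and 2 peaks in Fs and 3, 3 and 4 in Fts. The numbers overlapped, with a difference of 1 peak and an SD of 1 over the pairs (p = 0.5 by the exact sign-flip test, two-sided and unadjusted). With a minimum score of 20 they were 2, 1 and 2 in Fs and 3, 3 and 4 in Fts, and then did not overlap. Joined across exon junctions they were 2 in each of the 6 samples. The summed scores were 93.36, 145.9 and 265.4 in Fs and 1038, 2172 and 1802 in Fts, and every Fts sample lay above every Fs sample. The peaks covered 9.27%, 5.38% and 4.87% of the exon bases in Fs and 27%, 29% and 31.9% in Fts.

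In HNRNPA2B1 the position of the called peaks differed between the groups as well as the score, but several of the exons have near-identical copies elsewhere in the genome. All coordinates are on chromosome 18, plus strand, and the longest coding mRNA has 12 exons and 3966 nt. Exon 9, at chr18:46211801-46211920, had a peak in the 3 Fs samples with scores of 34.44, 132.37 and 91.28 and in 0 Fts samples. Further Fs peaks lay on exon 6 in Fs 2, exon 7 in Fs 3 and exon 8 in Fs 1, each in that sample alone, with scores of 13.54, 174.13 and 50.98. Together the Fs peaks on exons 6 to 9 filled positions 964 to 1329 of the mRNA, and no Fts sample had a peak there.

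The Fts peaks of HNRNPA2B1 lay to both sides of that stretch. The region chr18:46208182-46208605 had scores of 682.11, 1472.48 and 1069.86 in the 3 Fts samples and no Fs peak. In each Fts sample this was the highest score of any reader, and 138, 126 and 112 genes had a higher highest score. It held 147 coding bases of exons 2 and 3, and 277 of its 424 bp lay outside annotated mRNA exons. The region chr18:46213184-46214030, exons 11 and 12, had scores of 137.33, 648.64 and 221.04 in Fts and no Fs peak, with 62 coding bases and 628 bases of 3'UTR. Exon 10 had peaks in Fts 1 and Fts 3 with scores of 219.04 and 472.42. The Fts peaks on exons 10 to 12 filled positions 1330 to 2142, so that they began at the base after the Fs stretch ended.

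A last region of HNRNPA2B1, chr18:46205359-46206848, had a peak in Fs 1 with a score of 7.94 and in Fts 2 and Fts 3 with scores of 50.42 and 38.84. The Fs 1 peak was 200 bp long and lay in the 5'UTR of exon 1, whereas the Fts peaks of 1144 and 1431 bp ran on from exon 1 into the first intron. Of the whole region, 1227 of 1490 bp lay outside annotated mRNA exons. When whole regions were searched, copies elsewhere in the genome were found for 3 of the 8 regions of this gene. They were exons 6, 8 and 10, at 93%, 93.2% and 91.9% identity. A search exon by exon with a shorter seed, chosen after these values were seen, found copies for 6 of the 10 exon pieces of the gene, exons 3, 6, 7, 8, 9 and 10. Exon 7 had the most, 5 copies at up to 96.2% identity. Exon 3 had 4 at up to 94.6% and exon 9 had 1 at 93.4%, and both belong to regions called between the groups, while exons 2, 11 and 12 had 0. The whole Fs stretch, exons 6 to 9, thus lies on exons with a copy. Among the other readers the 49 bases of IGF2BP1 exon 3 had 1 copy. Peaks on exons with a copy are uncertain, because reads could come from the copy.

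HNRNPC binds uridine tracts that m6A nearby makes accessible. It had 1, 1 and 1 peaks in Fs and 3, 2 and 2 in Fts, with summed scores of 3.64, 24.88 and 23.31 in Fs and 35.02, 211.4 and 62.14 in Fts. The groups did not overlap in number or in sum. With a minimum score of 20 the numbers were 0, 1 and 1 in Fs and 0, 2 and 1 in Fts, and the groups overlapped. The region at the end of the coding sequence, chr7:77968899-77969602 on the plus strand, had a peak in all 6 samples. Its scores were 3.64, 24.88 and 23.31 in Fs and 17.03, 175.2 and 56.22 in Fts. Fts 1 lay below Fs 2 and Fs 3 here, so the groups overlapped. The region held 263 coding bases of exons 8 and 9 of 9, the stop codon, 342 bases of 3'UTR and 99 bp of the intron between them. The added Fts peaks lay on exon 3 (Fts 1), exon 4 (Fts 1 and Fts 2) and exon 1 (Fts 3), with scores from 5.92 to 36.2.

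**Figure D2:**
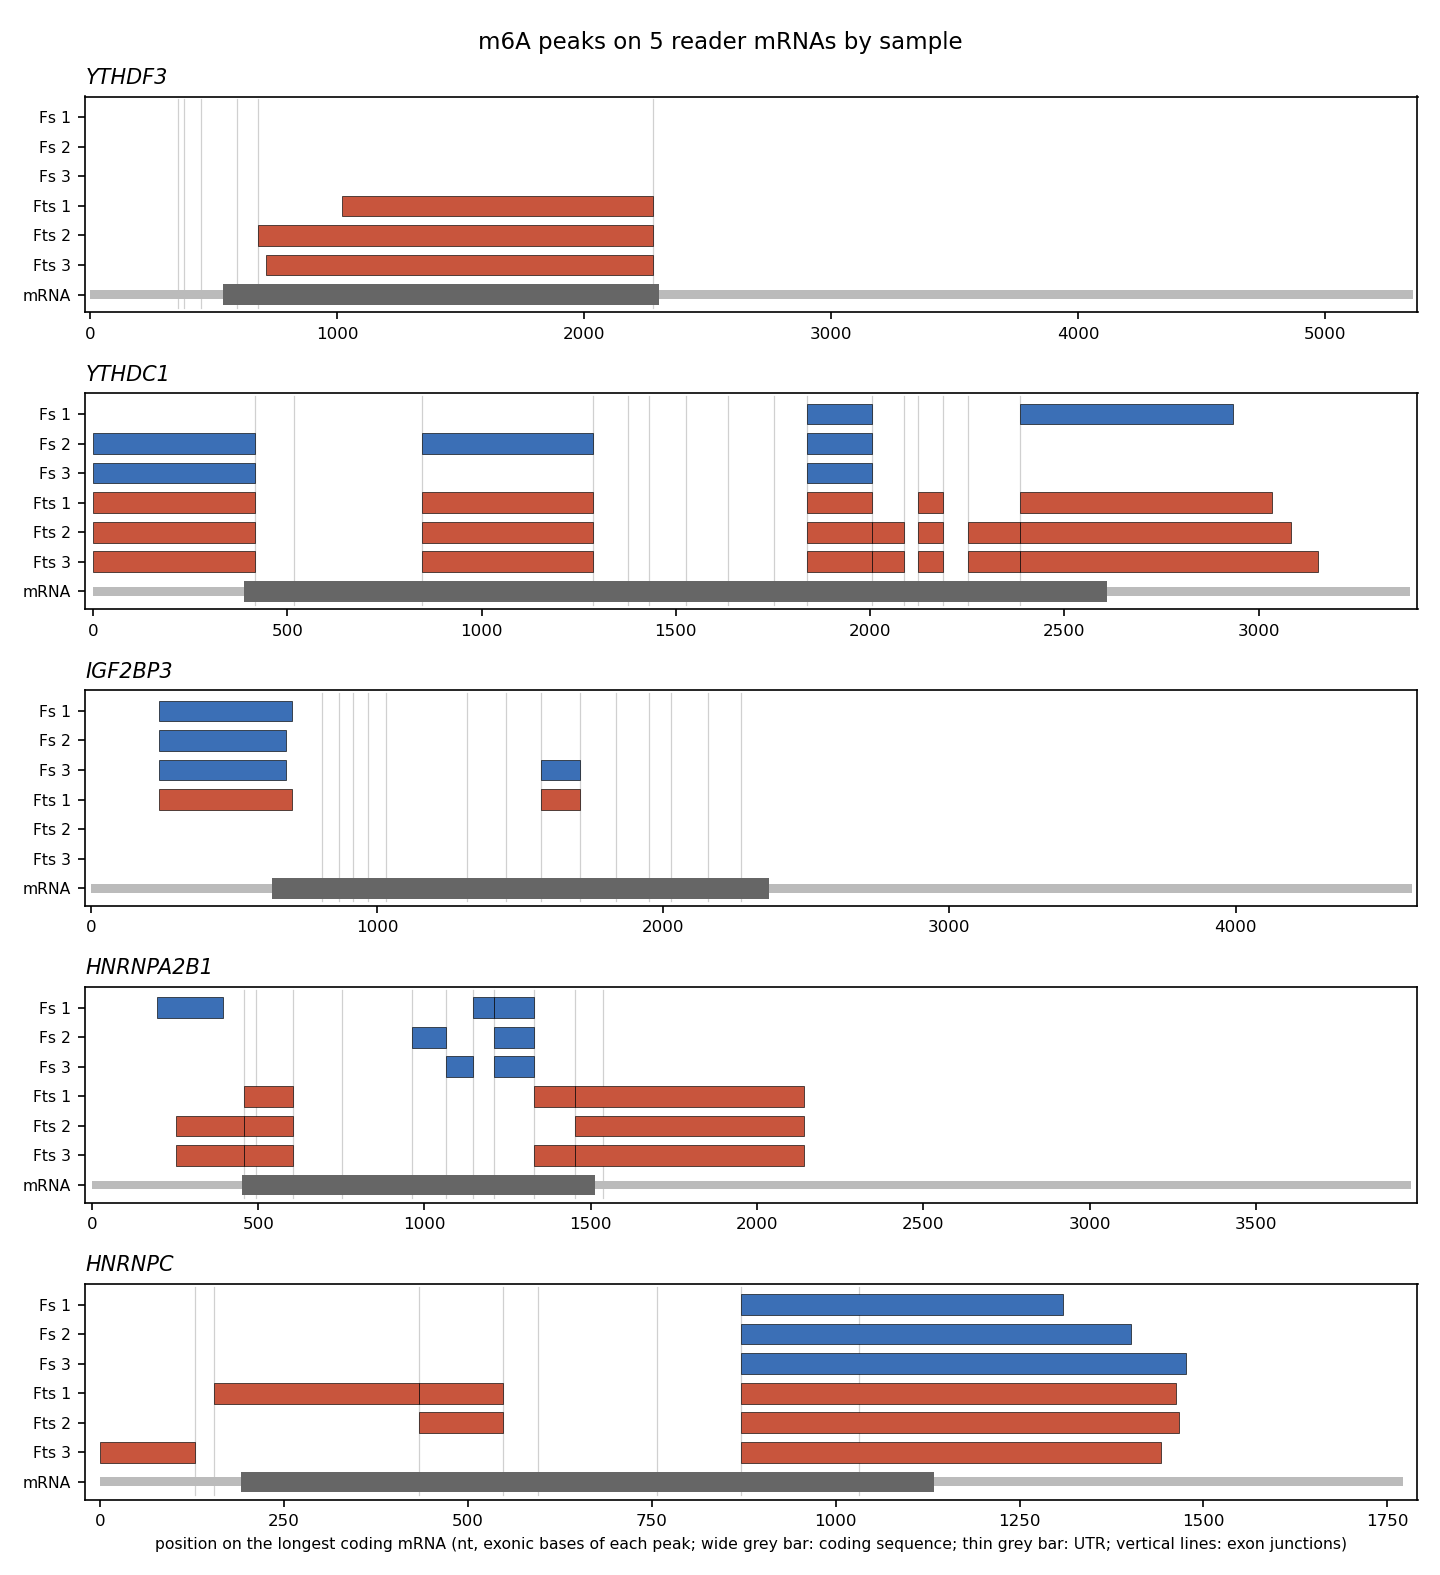
Peaks of each sample (bars, Fs blue, Fts red) on the longest coding mRNA of 5 reader genes, in nt from its first base; only exonic bases of a peak are drawn, the wide grey bar is the coding sequence and vertical lines are exon junctions. HNRNPA2B1 had Fs peaks at positions 964 to 1329, all on exons with a copy elsewhere in the genome. Its Fts peaks lay at 459 to 605 and 1330 to 2142, and exons 3 and 10 among them also have a copy. Exon 1 peaks lay at 196 to 395 in Fs 1 and 255 to 458 in Fts 2 and Fts 3. YTHDF3 had peaks in the 3 Fts samples alone.

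Over the 9 genes the 68 peaks formed 26 regions, of which 7 had a peak in 1 sample, 7 in 2, 6 in 3, 3 in 4, 1 in 5 and 2 in 6 samples. Regions in 1 sample made up 26.9% of the reader regions and 47.6% of all 26095 regions on mRNA exons, and regions in 6 samples made up 7.69% and 3.22%. A peak in the 3 Fts samples and 0 Fs samples was found in 4 of the 26 reader regions (15.4%), against 6.79% of all regions. The reverse was found in 1 reader region (3.85%), exon 9 of HNRNPA2B1, against 3.64%, and this count was 0 with a minimum score of 50 and 2 without the samples numbered 1. The 4 regions were exon 6 of YTHDF3, exon 14 of YTHDC1, and exons 2 to 3 and exons 11 to 12 of HNRNPA2B1. Peaks of Fts samples alone made up 46.2% of the reader regions and 44% of all regions, and peaks of Fs samples alone 19.2% and 33%. Without the samples numbered 1, the count of regions in every Fts and 0 Fs samples was 9. The 6.79% and 3.64% of all regions are for 3 against 3 samples without a minimum score. They cannot be set beside the counts at other settings.

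The reader peaks followed exon borders. Of the 68 peaks, 34 (50%) were equal to 1 exon of the longest coding mRNA, against 44.8% of all mRNA peaks, and 61 (89.7%) had at least 1 end on an exon boundary, against 79.3%. A stretch of mRNA that spans several exons can thus be counted as several peaks.

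By the midpoint of the peak on the longest coding mRNA, 13 of 23 Fs reader peaks (56.5%) and 26 of 42 Fts reader peaks (61.9%) lay in the coding sequence away from the start and stop codon by more than 100 nt. The coding sequence so defined makes up 47.7% and 34.6% of the length of the mRNAs concerned. Of all mRNA peaks, 72.2% ± 0.622 (SD, n = 3) lay there in the Fs lists and 76.4% ± 0.474 in the Fts lists. For the readers it was 42.9%, 66.7% and 57.1% in Fs and 61.5%, 61.5% and 62.5% in Fts, and the groups overlapped. The difference of 5.38 percentage points was 0.207 with codon classes of 200 nt and turned to -5.16 with a minimum score of 20 and to -35.9 with a minimum of 50, so its size and direction depend on these choices.

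Around the stop codon lay 4 of 23 Fs reader peaks (17.4%) and 4 of 42 Fts reader peaks (9.52%), against 3.83% ± 0.0805 and 3.91% ± 0.0561 of all mRNA peaks. Of the Fs reader peaks, 6 lay in the 5'UTR and 0 in the 3'UTR. Of the Fts reader peaks, 5 lay in the 5'UTR, 2 around the start codon and 5 in the 3'UTR, and another 3 had their midpoint outside the longest coding mRNA. The 5'UTR peaks of Fs came from IGF2BP3, YTHDC1 and HNRNPA2B1, and the 3'UTR peaks of Fts from YTHDC1 and HNRNPA2B1. These 3'UTR peaks also ran over the stop codon, and only their midpoints lay beyond the stop codon class. The YTHDC1 peaks on exon 17 started at the same base but counted as stop codon in Fs 1 and Fts 1. In Fts 2 and Fts 3 they were longer and counted as 3'UTR. The classes thus do not show that peaks over the stop codon were rarer in Fts.

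Writers set m6A mostly in the motif RRACH, in which R stands for A or G and H for A, C or T. On the transcript strand, 23 of 25 reader regions (92%) held it within 150 nt around the midpoint, and so did 87.6% of all regions in windows of the same length. In windows of 100 nt the shares were 76% and 76.1%. The midpoint of 1 further region lay outside the longest coding mRNA. The mean number of matches was 2.16 in a reader window and 2.17 in any window. GGACT, a form of the motif that writers favour, was present in 1 reader window (4%), that of YTHDC2, against 14.5% of all windows. A match describes the letters and is not a methylated site.

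A coding stretch of each of the 6 regions with peaks in the most samples is given so that the exons behind the scores can be seen. The stretches were read from the RefSeq genome on the transcript strand, with matches to RRACH in capitals. The exon 4 stretch of YTHDC1 is cut to the central 300 bases. Of the HNRNPC region only exon 8 is shown, and its coding bases in exon 9 are left out. Exon 11 of YTHDC1 (chr8:66113715-66113881, 6 samples) has 3 matches, exon 8 of HNRNPC (chr7:77968899-77969059, 6 samples) has 2 and the coding start of YTHDC1 in exon 1 (chr8:66086927-66086954, 5 samples) has 0. Exon 4 of YTHDC1 (chr8:66098834-66099133, 4 samples) has 3, the coding end of YTHDC1 in exon 17 (chr8:66121715-66121939, 4 samples) has 6 and the coding start of IGF2BP3 in exon 1 (chr9:92271551-92271622, minus strand, 4 samples) has 4.
YTHDC1 exon 11: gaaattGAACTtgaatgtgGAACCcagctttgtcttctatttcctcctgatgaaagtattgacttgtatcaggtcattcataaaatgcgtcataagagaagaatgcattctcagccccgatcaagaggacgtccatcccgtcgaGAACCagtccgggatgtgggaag
HNRNPC exon 8: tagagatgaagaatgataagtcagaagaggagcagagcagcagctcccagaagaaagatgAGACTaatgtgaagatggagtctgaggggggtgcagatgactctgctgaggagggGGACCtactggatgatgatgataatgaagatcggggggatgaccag
YTHDC1 exon 1: atggcggccgacagccgagaggagaaag
YTHDC1 exon 4: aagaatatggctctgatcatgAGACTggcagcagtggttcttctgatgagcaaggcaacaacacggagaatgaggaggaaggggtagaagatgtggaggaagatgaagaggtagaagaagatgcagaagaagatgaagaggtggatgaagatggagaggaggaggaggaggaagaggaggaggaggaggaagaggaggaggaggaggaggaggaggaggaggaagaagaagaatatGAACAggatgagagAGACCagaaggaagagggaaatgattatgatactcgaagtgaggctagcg
YTHDC1 exon 17: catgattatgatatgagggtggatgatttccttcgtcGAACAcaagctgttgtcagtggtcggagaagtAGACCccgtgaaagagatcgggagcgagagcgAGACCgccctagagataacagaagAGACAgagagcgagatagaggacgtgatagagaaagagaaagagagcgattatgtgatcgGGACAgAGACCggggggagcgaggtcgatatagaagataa
IGF2BP3 exon 1: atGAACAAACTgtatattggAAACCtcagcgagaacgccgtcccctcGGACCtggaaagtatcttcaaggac

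Long runs of A and G mark exon 4 of YTHDC1, in which 81% of the 300 bases are purines. In the 150 nt around the midpoint of that region 92.7% of the bases were purines, and 0.0126% of all windows had as many. This window held 0 matches to RRACH, and the matches in the printed 300 bases lie to either side of it. The median purine share was 57.3% in reader windows and 52.7% in all windows, and the median GC share was 48% and 50.7%.

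Coding bases of 1 exon from each of the 3 HNRNPA2B1 regions that differed between the groups are shown beside each other. The 36 coding bases of exon 2, in the same region as exon 3, are left out. These were chosen after their values were seen. Exon 3 (chr18:46208495-46208605), with peaks in the 3 Fts samples, has 5 matches to RRACH in 111 bases. Exon 9 (chr18:46211801-46211920), with peaks in the 3 Fs samples, has 1 match in 120 bases. The coding end in exon 11 (chr18:46213184-46213245), with peaks in the 3 Fts samples, has 1 match in 62 bases.
HNRNPA2B1 exon 3: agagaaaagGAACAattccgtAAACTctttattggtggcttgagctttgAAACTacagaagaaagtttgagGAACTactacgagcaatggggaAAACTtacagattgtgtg
HNRNPA2B1 exon 9: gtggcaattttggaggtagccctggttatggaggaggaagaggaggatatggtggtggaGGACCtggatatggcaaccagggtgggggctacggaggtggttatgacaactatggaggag
HNRNPA2B1 exon 11: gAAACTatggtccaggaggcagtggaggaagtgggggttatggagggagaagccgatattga

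Other genes of the m6A pathway were counted from fixed lists. Of 9 writer genes, whose products form the methyltransferase or guide it, 9 had a peak, with 8, 6 and 7 peaks in Fs and 14, 16 and 12 in Fts and summed scores of 152.1, 138.3 and 211 in Fs and 623.6, 1127 and 1133 in Fts. Fts lay above Fs in 2 of them and Fs above Fts in 0, beside the 8.98% and 5.36% of all genes with a peak. VIRMA, a scaffold of the writer complex, had 0, 0 and 0 peaks in Fs and 2, 3 and 2 in Fts, and ZC3H13, which keeps the complex in the nucleus, had 3, 1 and 1 in Fs and 4, 8 and 4 in Fts. ZC3H13 also had the most peaks of the writers, 21 over the 6 samples. The erasers FTO and ALKBH5, which remove the methyl group, both had peaks in Fts alone, FTO 3 in Fts 3 and ALKBH5 1 in Fts 2, and both overlapped between the groups at 0.

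Of 9 further proteins reported to bind m6A RNA, 8 had a peak and FMR1 had none, with 5, 2 and 7 peaks in Fs and 14, 14 and 10 in Fts. Their summed scores were 179.3, 113.2 and 305.4 in Fs and 1150, 2076 and 122.7 in Fts, and Fts 3 lay below Fs 1 and Fs 3. FXR1, an RNA-binding relative of FMR1, was the 1 gene of this list with Fts above Fs, with 0, 0 and 0 peaks in Fs and 1, 2 and 4 in Fts, beside 8.98% of all genes. EIF3A, a subunit of a translation initiation factor, had the most peaks, 2, 1 and 3 in Fs and 5, 7 and 3 in Fts, and the groups overlapped. Of 11 partners of the readers, 10 had a peak, SRSF3 had none, and the list had 5, 8 and 7 peaks in Fs and 5, 3 and 5 in Fts. In 0 of these genes did the groups not overlap, beside the same 8.98% and 5.36%. CNOT1, the scaffold of the deadenylase complex that YTHDF2 recruits, led this list with 1, 2 and 1 peaks in Fs and 1, 1 and 2 in Fts.

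The genes most like YTHDC1 over the 6 samples were found by the Euclidean distance of log10 of the summed score plus 1. MKX was the nearest at a distance of 0.466, with 1 peak in each sample and summed scores of 48.45, 105.6 and 54.47 in Fs and 940.6, 839.7 and 868.2 in Fts. BAZ2B followed at 0.659, with 1, 1 and 1 peaks in Fs and 7, 9 and 8 in Fts. IL12RB1 was at 0.683, with 2, 2 and 1 peaks in Fs and 1 in each Fts sample. The likeness is one of summed scores, and the numbers of peaks differ from those of YTHDC1.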

How the data were processed

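m6A was measured by MeRIP-seq in 3 Fs and 3 Fts samples of boar sperm. Per the labels and the methods of the study, the authors trimmed reads with cutadapt (1.9.3), aligned them with HISAT2 to susScr11, called peaks with MACS per sample against its own input (version not given in the sources used here) and kept peaks on mRNAs. The deposited score of a peak was taken as 10 times -log10 of its MACS p-value from the range of its values, since the sources used here do not state the scale, and was not scaled between samples. The lowest deposited score was 3.02, which on that scale is a MACS p of 0.499, so the lists reach down to weak peaks. A score of 20 is a MACS p of 0.01. The authors' list of sites that differ between the groups holds their own comparison and was not used here.

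Chromosome names and lengths of susScr11 and the RefSeq genome (Sscrofa11.1, Annotation Release 106) were compared before use. VIRMA was matched by an older symbol, and SPEM1, a sperm marker, was not matched. Peaks overlapping an mRNA exon by at least 1 bp on its strand were counted. Overlapping peaks of the 6 samples on exons were merged into regions. Transcript features used the longest coding mRNA, with codon classes of 100 nt to each side. Copies of a region were searched with BLAST 2.17.0 (megablast) at 90% identity over at least 50% of its length. After the first results were seen, the exonic bases of each region were also searched exon by exon, with a word size of 16 and no low-complexity filter. Python 3.11.15, numpy 2.4.6 and pandas 2.3.3 were used. The code was tested on simulated peak lists.

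All 10 readers were to be named, and in full the regions in at least 3 samples or with the highest score of their gene. From other lists, members whose groups did not overlap and the member with the most peaks were to be named, and the 3 genes nearest to the reader with the most peaks. Sequences were to be those of at most 6 regions, and 3 of HNRNPA2B1 were added after the values were seen. The members and lists were chosen with earlier results of these data known. Alternatives were a minimum score of 20 or 50, joined peaks, the midpoint rule, the longest mRNA alone, either strand, list length, merging rule, codon class of 200 nt, motif and window, each number left out, and no pairing. The samples named replicates are numbered portions whose boar is not given, so that p-values measure the spread between these samples.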

Additional observations from a re-analysis of the deposited data

How the results depend on the processing

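The difference in reader peaks between Fts and Fs was 7.33 and stayed within its spread under 9 of the 10 alternatives in the same unit. Per 10000 deposited peaks it was 5.54, which cannot be set against that spread. With peaks joined across exon junctions it was 4.67, because neighbouring exons then count once. Leaving out the samples of one number gave 6 to 8.5. Readers with Fts above Fs in peaks numbered 3 in every setting except without replicate 1, where they were 5 (range 3 to 5), but with a minimum score of 20 or 50 HNRNPA2B1 took the place of HNRNPC. The 8.98% of all genes is for the main setting alone, so it cannot be set beside the 5. Regions in every Fts and 0 Fs samples were 4, and 5 with a minimum score of 20 or 50. With 1 number left out they were 5 to 9, because fewer samples must then hold a peak. The share of all regions given above is likewise for the main setting alone. The coding share of reader peaks differed by 5.38 percentage points, by 0.207 with codon classes of 200 nt, by -5.16 and -35.9 with a minimum score of 20 and 50, by -0.431 without replicate 1 and by up to 12.1 without another number; the cause was not tested. The motif share of 92%, against 87.6% of all regions, became 100% against 93.4% in windows of 200 nt, 76% against 76.1% in windows of 100 nt and 92% against 93.2% with DRACH, so its place above all regions depends on the motif and the window.

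Gene by gene, no pairing by number was seen, but the measure could not tell whether the samples were paired. Deviations from the group means correlated at -0.0031, -0.018 and 4.8e-05 for equal numbers over 11705 genes. For unlike numbers they correlated at -0.016 to 0.02, so no pair of samples stood out. Of the 6 samples, 0 correlated best with their own number. The lengths of the deposited lists did go with the number, with an SD of 303 peaks over the pair differences, against 1352 in Fs and 1215 in Fts. With no replicate block the difference in reader peaks was the same 7.33, that in genes with a peak 1 and the number of genes called 3. YTHDF3, YTHDC1 and HNRNPC then had p = 0.1 in the two-sided exact permutation test, the smallest that 3 against 3 allow, and no call by p existed with or without the pairing. Of 88 alternatives for the 8 genes with a difference, 0 turned the direction and 11 gave a difference of 0. YTHDC2, with a difference of 0, stayed there in 8 of 11 alternatives. It went to 0.5 and -0.5 without replicates 2 and 3, and to -0.043 per 10000 deposited peaks. Reader regions with a near-identical copy numbered 3, and 7 when searched exon by exon with a shorter seed and no filter, an alternative chosen after the data were seen. Few peaks and 3 samples per group limit these values.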
